A study of Sus scrofa with 50 samples.

Results

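The cytosolic ribosomal proteins of Korean minipigs (Sus scrofa) are described here as 79 of 35134 genes. A member is any Swiss-Prot entry named as a protein of the large or small ribosomal subunit that was the best protein match of at least 1 assembled transcript, and its level is the sum over its transcripts. The naming rule by its letter also took in 34 entries of the mitochondrial ribosome, whose names start with m, and these were set aside, which left 47 proteins of the large subunit and 32 of the small subunit on 313 transcripts. Entry names are used throughout, in which RL stands for a large-subunit and RS for a small-subunit protein. The study sequenced mRNA from 5 tissues (heart, kidney, liver, lung and spleen) of 10 minipigs, 5 called ET-type and 5 called L-type. S0235, S0242, S0276, S0309 and S0326 were ET-type and S0349, S0355, S0377, S0384 together with S0385 were L-type. Each animal gave 1 library per tissue, 50 in all. What the type names stand for, and the animals' age, sex or treatment, are not given in the sources used here. Values are TPM, which correct for transcript length and add up to 1000000 in each library, so a ribosomal protein can only take a larger share where other transcripts take less. The deposited TPM carry no read counts, so the depth of each library is unknown.

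The ribosome translates mRNA into protein. Its small subunit reads the mRNA and its large subunit joins the amino acids, and each carries ribosomal RNA together with many different proteins, nearly all present once per ribosome. Cytosolic ribosomal protein mRNAs are among the most abundant in any cell. They share a pyrimidine tract at the 5′ end, through which the mTORC1 kinase and the LARP1 protein control their translation together. A few members have paralogs made in particular tissues, of which the best known is RPL3L (entry RL3L), the form of RPL3 found in heart and skeletal muscle.

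The libraries carried the markers of their tissues with 1 exception that touches these genes. The summed heart, liver and lung markers were higher in all 10 libraries of their own tissue than in any other library. The kidney markers were so in 5 of 10 kidneys, and the B cell markers in 7 of 10 spleens with 1 kidney set aside. The kidney library of ET-type animal S0235 held 2763 TPM of T and NK cell markers, against 11.6 to 90.4 TPM in the other 9 kidneys, and 121 TPM of kidney markers, against 1066 to 7964 TPM. Outside kidney the kidney markers reached 1750 TPM, in the liver of S0276. They were 344, 386 and 695 TPM in the heart, liver and lung of S0235. Transcripts of the mitochondrial genome made up 29.1% to 47.1% of TPM in heart and 6.29% to 45.6% in kidney, but 2.94% to 5.10% in spleen. Haemoglobin made up 0.543% to 33.3% of TPM in spleen and at most 0.115% in any heart. Since TPM are shares, these fractions enter every level below, and fewer cells of a type cannot be told apart from less mRNA per cell.

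The members ranged over more than 3 orders of magnitude, and their order was much the same in each library. The highest means over the 50 libraries belonged to RLA1 (4931 TPM), RS3A (3034 TPM), RLA2 (2891 TPM), RS18 (2702 TPM), RS8 (2216 TPM) and RL35A (1897 TPM). RLA1 and RLA2 are the acidic proteins P1 and P2 of the stalk, the flexible arm of the large subunit that recruits elongation factors, and RS3A and RS18 belong to the small subunit. The 6 together held 22.5% of the summed level of all members. The median member had a mean of 873 TPM, and 69 of 79 had a mean of at least 100 TPM. Across the 79 members, the levels of each library had a Spearman correlation of at least 0.856 with the mean of the other 49 libraries, with a median of 0.953. This is a description across genes, which are not replicates.

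The low end held members with partial matches beside members matched over most of their length. The lowest means were those of RS4X (0.789 TPM), RL32 (3.42 TPM) and RL31 (9.62 TPM), with RL23 at 12.9 TPM, RS28 at 14.8 TPM, RL3L at 33.4 TPM, RL5 at 33.7 TPM and RL7L at 55.9 TPM next. RL32 rested on 1 transcript of 7449 bases that matched 77 residues at 83.1% identity, and RS28 on 1 transcript that matched 26 residues. RL3L and RL7L also rested on 1 transcript each, which matched 406 residues at 95.8% and 247 residues at 100% identity. RL5 drew 98.5% of its level from a transcript of 2775 bases that matched 127 residues at 87.4% identity. RS4X and RS4 are entries for the same gene, RPS4X, and RS4 carried 792 TPM. The levels of RL5, RL23, RL31, RL32 and RS28 are those of the transcripts that found these entries as best match, and whether other transcripts of the same genes went to other entries was not tested. No transcript had the small-subunit protein RS15 or the large-subunit peptide RL41 as its best match. RL40, RS27A and RS30, which are made as fusions to ubiquitin or a ubiquitin-like protein, carry other names and lie outside the rule.

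The ribosomal protein share of a library differed by tissue. Lung had the highest share, 10.7% ± 1.35 (SD, n = 10), followed by spleen at 9.20% ± 1.26, kidney at 9.10% ± 5.84, heart at 6.07% ± 1.02 and liver at 4.19% ± 0.520. The kidney of S0235 reached 25.2%, and the other 9 kidneys had 7.31% ± 1.54. The highest liver (5.03%) lay below the lowest lung (8.48%) and the lowest spleen (6.77%), while hearts (4.83% to 7.81%) overlapped with livers and with kidneys. Counted only among transcripts other than those of the mitochondrial genome and haemoglobin, the shares came to 9.79% ± 1.90 in heart, 11.8% ± 5.42 in kidney (10.2% ± 1.24 without S0235), 4.67% ± 0.617 in liver, 11.4% ± 1.67 in lung and 11.2% ± 0.819 in spleen. On that scale liver stood apart and the other tissues overlapped. The highest liver had 5.41% and the lowest library of any other tissue 7.19%.

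**Figure D1:**
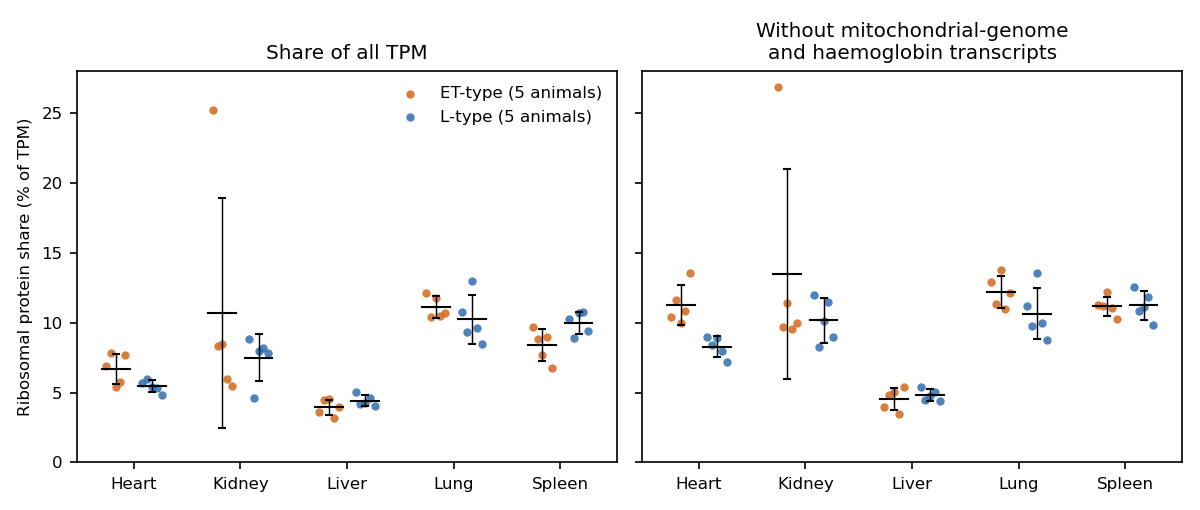
Summed ribosomal protein TPM as a percent of all TPM in each library (left), and as a percent of the TPM left after mitochondrial-genome and haemoglobin transcripts are removed (right), by tissue on the x axis and animal type by colour; points are libraries, bars the mean and the SD over 5 animals. Liver libraries sit lowest in both panels, between 3.21% and 5.03% on the left, and the kidney of S0235 stands alone at 25.2%.

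Member by member, each tissue was compared with the mean of the other 4 by limma on log2(TPM + 1) over every gene averaging 1 TPM or more, with Benjamini-Hochberg adjustment. Of the 79 members 78 passed that filter, RS4X being the exception. The libraries were fitted without the animal as block, although each animal gave every tissue. In liver 73 of 78 members were lower and 3 higher, beside 59.9% of all genes lower and 15.1% higher, with a median log2 difference of -0.95 for the members and -0.56 for all genes. The 3 that were higher were RL3L, RL27A and RL7L, and the 2 that passed in neither direction were RS21 and RSSA. In lung 72 were higher and 1, RL3L, lower, beside 64.1% and 10.6% of all genes. The lung medians were 0.67 for members and 0.65 for all genes, so the members' shift there was close to the background. In spleen 54 were higher and 2 lower (RL3L and RS2), beside 24.1% and 35.3%, with medians of 0.43 for members and -0.14 for all genes. In heart 42 were lower and 2 higher (RL3L and RL36), beside 64.4% and 11.9%, with medians of -0.34 and -0.65. In kidney 25 were higher and 4 lower (RL10, RL5, RLA0 and, with a sign that turned with a pseudocount of 0.1, RL3L), beside 36.3% and 19.1%, with medians of 0.16 for members and 0.15 for all genes. Without the kidney of S0235, 18 were higher and 12 lower in kidney, and the share of all genes was not counted in that fit.

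Liver kept more members lower than higher, and spleen more higher than lower, under 4 other scalings. These were median-ratio and quantile scaling, and removal of mitochondrial transcripts with or without those of haemoglobin. Heart turned under each except quantile scaling, which gave 11 members higher and 30 lower, beside 28% and 37% of all genes. Kidney and lung turned under median-ratio scaling alone. Under quantile scaling kidney had 58 higher and 2 lower (beside 25.2% and 34.5%) and lung 63 and 5 (25.2% and 34.8%). Median-ratio scaling fixes the typical gene rather than the sum. Under it heart turned to 40 members higher and 1 lower, beside 25.2% and 41.7% of all genes. Lung turned to 0 higher and 28 lower (beside 26.3% and 28.5%) and kidney to 9 and 12 (28.3% and 28%). Liver kept 5 higher and 48 lower (26.5% and 39.9%) and spleen 47 and 2 (23.5% and 38%). With mitochondrial transcripts removed, heart had 31 members higher and 6 lower, beside 20.3% and 47% of all genes. Kidney had 54 and 1 (beside 46.9% and 15.1%) and lung 57 and 1 (53.7% and 13.3%). Liver had 2 higher and 75 lower (13.5% and 64.8%), and spleen 17 and 4 (17.5% and 46.4%). The count of higher members in spleen was then close to the background. With haemoglobin transcripts removed as well, spleen had 54 higher and 2 lower (23.1% and 37.2%). Under quantile scaling it had 40 and 3 (25.8% and 33%). A single factor per library leaves the balance among the members as it is, so the tissues were also compared after each library was scaled on its ribosomal protein genes. This scaling was chosen after the data were seen.

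Relative to one another, 72 of 78 members differed in at least 1 tissue in that limma fit, mostly by little. In 20 the difference passed the test and reached 0.5 on the log2 scale in some tissue. For neither count was the matching share of all genes counted, so neither is a result about the members in particular. Heart had 22 members relatively higher and 22 lower, beside 16.2% and 51.7% of all genes on this scale. Kidney had 22 and 19 (beside 29.3% and 23.4%), liver 18 and 22 (35.8% and 30.4%), lung 19 and 18 (32% and 19.9%) and spleen 15 and 14 (15.4% and 49.5%). Since this scaling centres the members, similar numbers in both directions follow from its construction. The median SD of a gene's 5 tissue means was 0.55 on the log2 scale for the members and 0.76 for all genes before this scaling. The least variable of the members that passed the filter were RS21 (0.27), RS29 (0.33) and RL27 (0.36), and the most variable RL3L (2.76), RL3 (1.03) and RS20 (0.89).

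**Figure D2:**
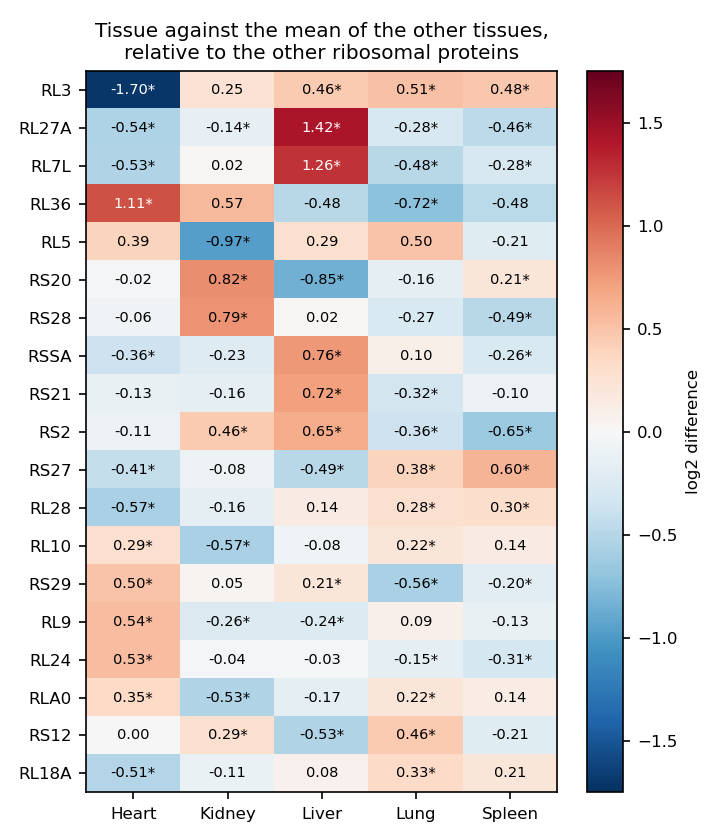
Log2 difference between each tissue (columns) and the mean of the other 4 after scaling on the ribosomal protein genes, for the 19 members other than RL3L that passed the test with a difference of at least 0.5 in some tissue (rows); red is higher, blue lower, and a star marks an adjusted p below 0.05 by limma. RL3 in heart (-1.70) and RL27A and RL7L in liver (1.42 and 1.26) are the strongest cells.

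In liver RL27A, RL7L and some small-subunit proteins were high relative to the other members. RL27A, a protein of the large subunit, stood at 1393 ± 283 TPM in liver (SD, n = 10), its highest tissue, when 67 of 79 members had liver as their lowest. Its relative difference in liver was 1.42 ± 0.06 (log2, SE), and it rested on 6 transcripts. RL7L, the paralog of RL7 that RefSeq calls RPL7L1 and that works in ribosome assembly, had 65.9 ± 15.8 TPM in liver and 33.7 ± 6.30 TPM in heart. RL7 itself had 574 ± 88.9 TPM in liver and 2046 ± 321 TPM in lung, so RL7L was relatively higher in liver by 1.26 ± 0.10 while its parent was among the 73 members lower in liver. On the scale of all TPM RL7L was higher in liver by 0.34 and did not pass without mitochondrial transcripts (adjusted p = 0.12). RSSA, the laminin-receptor-like protein at the back of the small subunit, was relatively higher in liver by 0.76 ± 0.12, RS21, its direct neighbour there, by 0.72 ± 0.07, and RS2, which lies near the mRNA entry channel, by 0.65 ± 0.13. RS20 and RS12, both of the small-subunit head, were relatively lower in liver, by -0.85 ± 0.09 and -0.53 ± 0.10.

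In kidney RS20 and RS28 were relatively higher and RL10 and RLA0 relatively lower, and in spleen RS27 was relatively higher. RS20 had 1743 ± 562 TPM in kidney and 377.25 ± 126 TPM in liver, and had the largest SD of tissue means among small-subunit members. RS20 was relatively higher in kidney by 0.82 ± 0.09. RS28 was relatively higher in kidney by 0.79 ± 0.18, at 23.7 ± 4.35 TPM on its single short match. RL10, a protein that joins the large subunit late in its maturation, was relatively lower in kidney by -0.57 ± 0.09, as was RLA0, the base of the stalk, by -0.53 ± 0.08. RS27, a zinc-finger protein of the small subunit, was relatively higher in spleen by 0.60 ± 0.12. Its 9421 TPM in the kidney of S0235, the library rich in lymphocyte markers, exceeded the 583 to 1766 TPM of the other 4 ET-type kidneys. The summed share of all members was also high in that library, at 25.2% of TPM against 5.44% to 8.50% in those 4 kidneys. The paralog RS27L, a p53 target, had 129 ± 15.5 TPM in lung and 61.3 ± 9.97 TPM in liver, and its relative difference was 0.27 ± 0.08 in liver and -0.22 ± 0.08 in spleen.

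Between the subunits the balance varied little. Summed large-subunit TPM was 1.36 ± 0.05 times the small-subunit TPM in kidney, 1.36 ± 0.04 in liver, 1.38 ± 0.04 in spleen, 1.39 ± 0.02 in lung and 1.46 ± 0.04 in heart (SD, n = 10). The highest ratio of any library was 1.51, in heart, and the lowest 1.23, in the kidney of S0235. The stalk proteins RLA0, RLA1 and RLA2 together made up 10.6% ± 0.625 of ribosomal protein TPM in liver, 12.3% ± 0.749 in kidney, 12.4% ± 0.886 in heart, 12.5% ± 0.532 in spleen and 13.2% ± 0.619 in lung. In hearts the stalk share was 10.98% to 12.4% in ET-type and 12.9% to 13.4% in L-type animals, which did not overlap.

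RL3 and RL3L had opposite levels in the heart. RL3 is the large-subunit protein whose extension reaches the peptidyl transferase centre, and RL3L takes its place in striated muscle ribosomes. RefSeq places RPL3 on chromosome 5 from 8922697 to 8929768 and RPL3L on chromosome 3 from 40004907 to 40016702 of Sscrofa11.1. In hearts RL3L was 172, 203, 90.1, 72.4 and 35.6 TPM in the ET-type animals S0235, S0242, S0276, S0309 and S0326. In the L-type hearts, in the order above, it was 152, 174, 205, 205 and 167 TPM. Liver held 13.5 ± 2.17 TPM (SD, n = 10), kidney 4.90 ± 1.73, lung 0.540 ± 0.278 and spleen 0.214 ± 0.120, so every heart exceeded every library of another tissue. The log2 difference of RL3L was 5.24 ± 0.15 for heart (SE, adjusted p = 1.3e-31 by limma) and 1.24 ± 0.15 for liver (adjusted p = 7.4e-10). RL3 was lowest in heart, at 275.96 ± 145 TPM, against 582 ± 91.3 in liver, 997 ± 350 in kidney, 1252 ± 284 in spleen and 1484 ± 387 in lung. Its log2 difference for heart was -2.01 ± 0.13 (adjusted p = 4.5e-18). A second transcript with RL3L as its best match, under a name the rule does not take, had 16.1 ± 7.81 TPM in heart and 0.163 ± 0.238 TPM in lung.

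Their balance was uneven among the ET-type hearts. RL3 was 269, 263, 373, 460 and 555 TPM in the hearts of S0235, S0242, S0276, S0309 and S0326, and 150, 194, 233, 140 and 122 TPM in the L-type hearts. All 5 ET-type hearts were above all 5 L-type hearts. RL3L made up 46.9% to 59.5% of the sum of RL3 and RL3L in L-type hearts, 39.0% and 43.5% in the hearts of S0235 and S0242, and 19.4%, 13.6% and 6.04% in those of S0276, S0309 and S0326. In RL3L those 3 hearts lay below every L-type heart, whereas S0235 and S0242 lay among them. The type difference of RL3 in heart was 1.17 ± 0.25 (log2, SE, adjusted p = 0.086 by limma), which passed when the 50 libraries shared 1 fit with a replicate block by animal (adjusted p = 0.0032) and without the heart of S0242 (adjusted p = 0.025). That of RL3L was -0.89 ± 0.40 (adjusted p = 0.21). The same 3 hearts had the lowest heart marker sums, 45248, 29492 and 22217 TPM against 57020 to 85924 TPM in the other 7, and the lowest mitochondrial ribosomal protein shares, 0.306%, 0.225% and 0.243% of TPM against 0.409% to 0.477%. The part of muscle cell content in these values was not tested.

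**Figure D3:**
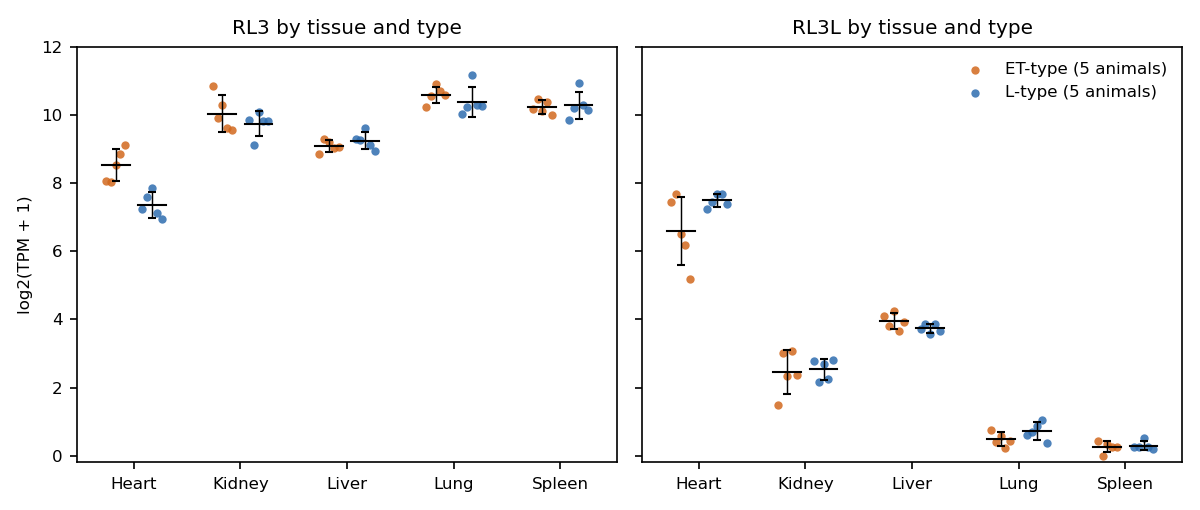
RL3 (left) and RL3L (right) as log2(TPM + 1) in each library, by tissue on the x axis and animal type by colour; points are libraries, bars the mean and the SD over 5 animals. RL3L is highest and RL3 lowest in heart, where all ET-type hearts lie above all L-type hearts for RL3, and RL3L falls to 35.6 TPM in 1 ET-type heart.

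The forms of an elongation factor showed a like balance. EF1A1 and EF1A2 are the general and the muscle and neuron form of the factor that brings aminoacyl-tRNA to the ribosome. EF1A2 had a log2 difference of 7.91 ± 0.24 for heart (adjusted p = 1.4e-30 by limma), the largest among the translation factors in heart. In hearts EF1A1 was 2239, 1833, 2318, 3289 and 4035 TPM in the ET-type animals, in the order above, and 1274, 1370, 1052, 995 and 891 TPM in the L-type animals, with no overlap. EF1A2 was 588, 977, 294, 196 and 172 TPM in ET-type and 728, 1064, 2449, 1508 and 1966 TPM in L-type hearts. Their type differences were 1.25 ± 0.24 and -1.99 ± 0.49, neither past the threshold (adjusted p = 0.086 and 0.089). The hearts with least RL3L, those of S0276, S0309 and S0326, also had least EF1A2.

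RS2 lies next to RPL3L without sharing its pattern. RefSeq places RPS2 on chromosome 3 from 39996179 to 40003110, so 1796 bases separate it from RPL3L. RS2 was lowest in heart, at 1368 ± 373 TPM, and highest in kidney, at 2448 ± 607 TPM, with a log2 difference for heart of -0.42 ± 0.10 (adjusted p = 0.00034 by limma).

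By animal type, few members passed the test. Each tissue was fitted alone, 5 ET-type against 5 L-type animals. In heart, kidney, liver and lung 0 members passed by limma, beside 0.0238%, 0%, 0.00933% and 0.213% of all genes in those fits. An unadjusted p under 0.05 was reached by 30 of 78 members in heart (4671 of 21015 genes), 0 of 78 in kidney (2301 of 27304), 5 of 78 in liver (1412 of 21446) and 4 of 77 in lung (4729 of 29139). In the animals' means over tissues 0 of 78 passed, beside 0.00336% of all genes, and 2 had an unadjusted p under 0.05. In spleen 3 of 78 passed, all lower in ET-type, beside 22.2% of all genes in either direction and 21.5% in that direction, and how the members' count relates to that background was not tested. RS4X lay below the filter in heart, kidney and liver, RL3L in spleen, and both in lung. The p-values judge each difference against the spread between animals of a type.

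In heart the members lay mostly above 0. Their summed share was 6.88%, 7.81%, 5.41%, 5.73% and 7.66% of TPM in ET-type and 5.70%, 5.97%, 5.39%, 5.35% and 4.83% in L-type hearts, which overlapped. Without mitochondrial transcripts it was 9.94% to 13.6% in ET-type and 7.19% to 8.97% in L-type hearts, with no overlap. The difference was positive for 64 of 78 members, with a median of 0.32 against 0.09 over all genes. Cell marker levels also went with the types in these hearts. The summed heart markers were 22217 to 69669 TPM in ET-type and 70406 to 85924 TPM in L-type hearts, with no overlap, and all 5 genes had a difference below 0 (median -1.03). The T and NK cell markers summed to 3.23 to 9.68 TPM in ET-type and 2.33 to 3.47 TPM in L-type hearts, and the 3 of 6 that were tested lay above 0 (median 0.63). The red cell markers summed to 129 to 1156 TPM and 13.2 to 135 TPM, and the 3 of 5 tested lay above 0 (median 2.57). None of these markers passed by limma, 4 heart, 3 T and NK and 3 red cell markers had an unadjusted p under 0.05, and their part in the members' differences was not tested. In 15 members, RL3 among them, every ET-type heart was above every L-type heart, and in 0 members the reverse, beside 4.68% of all genes that separated in either direction. After RL3, the smallest p-values among the higher members belonged to RL37, at 579 ± 123 TPM in ET-type and 318 ± 79.0 TPM in L-type hearts (0.88 ± 0.21, adjusted p = 0.088), and RL38, at 1179 ± 187 and 729 ± 131 TPM (0.70 ± 0.19, adjusted p = 0.094). Both are small proteins of the large subunit. RLA0, the base of the stalk, was below every L-type heart in 4 of 5 ET-type hearts. RLA0 was 1670, 2710, 1185, 1060 and 1410 TPM in ET-type hearts and 1869, 1709, 2174, 1798 and 1907 TPM in L-type hearts. The mitochondrial ribosomal proteins, a separate set of 78 nuclear-encoded genes for the ribosome inside mitochondria, had 74 of 78 differences below 0 in heart, with a median of -0.36, and 0 that passed.

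**Figure D4:**
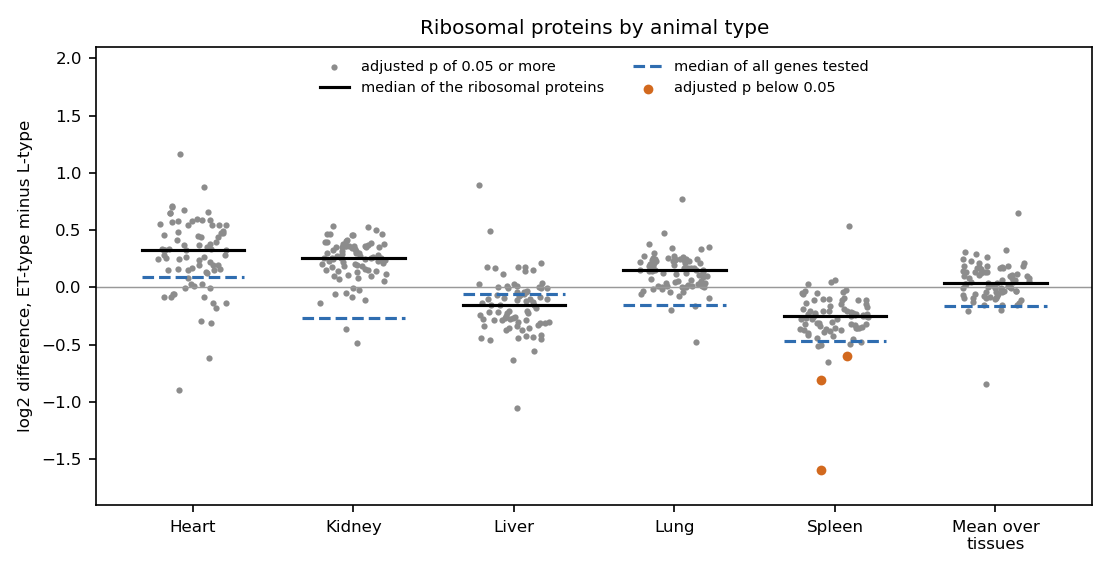
Log2 difference of each ribosomal protein, ET-type minus L-type, on the y axis for each tissue and for the mean over tissues on the x axis; grey points are members with an adjusted p of 0.05 or more by limma, orange points those below it, the black line is the members' median and the blue dashed line the median of all genes tested. Only spleen holds orange points, 3 of them, and the members' median lies above that of all genes in every column but liver.

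In spleen the members that passed were RS27L, RL5 and RSSA. RS27L was 87.2, 83.5, 73.7, 81.2 and 47.4 TPM in ET-type spleens and 155, 119, 131, 125 and 117 TPM in L-type spleens, with no overlap, a difference of -0.81 ± 0.18 (adjusted p = 0.025 by limma). RL5, which with RL11 and the smallest ribosomal RNA of the large subunit forms the particle that restrains MDM2, was 15.8, 21.4, 28.3, 27.8 and 5.13 TPM in ET-type and 46.4, 42.2, 67.2, 50.9 and 66.9 TPM in L-type spleens. These groups did not overlap either, and the difference was -1.60 ± 0.37 (adjusted p = 0.027). The RL5 level rests on a partial match of 127 residues at 87.4% identity. Whether other transcripts of its gene went to other entries was not tested. RSSA was 635, 674, 492, 482 and 387 TPM in ET-type and 676, 661, 1059, 748 and 888 TPM in L-type spleens, which overlapped, with a difference of -0.60 ± 0.19 (adjusted p = 0.045) that did not pass with the replicate block (adjusted p = 0.14) and was 0.29 when only the highest transcript was used (adjusted p = 0.62). In 8 members every ET-type spleen was below every L-type spleen, beside 15.8% of all genes in either direction. Of these 3, 0 passed under median-ratio scaling or scaled on the ribosomal protein genes, where RS27L had -0.56 ± 0.13 (adjusted p = 0.058) and RL5 had -1.35 ± 0.34 (adjusted p = 0.061). Under median-ratio scaling 4 members were higher and 0 lower in ET-type spleens, beside 2% and 1.18% of all genes. Without the spleen of S0276, S0377, S0384 or S0385, 0 members passed in each case, and without that of S0326 or S0355 it was 1 and 5. The share of all genes was not counted in those fits. Haemoglobin made up 10.9% to 33.3% of TPM in ET-type and 0.543% to 14.8% in L-type spleens, and summed B cell markers 39.0 to 99.7 TPM and 61.3 to 473 TPM. Without mitochondrial and haemoglobin transcripts the ribosomal protein share was 11.2% ± 0.678 in ET-type and 11.2% ± 1.02 in L-type spleens (SD, n = 5), against 8.397% ± 1.15 and 9.998% ± 0.805 of all TPM.

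In kidney the ribosomal protein share was 10.7% ± 8.22 in ET-type and 7.51% ± 1.66 in L-type animals, and 7.07% ± 1.58 in the 4 ET-type kidneys other than S0235. In liver it was 3.95% ± 0.549 and 4.43% ± 0.400, and in lung 11.098% ± 0.788 and 10.2% ± 1.74, with overlapping ranges in both tissues. The smallest p among the members higher in ET-type kidneys was that of RL35, a protein near the exit of the peptide tunnel (0.54 ± 0.40, adjusted p = 0.65 by limma). In liver RLA1 and RL11 separated the types, ET-type below, beside 1.08% of all genes in either direction. RLA1 was 1511, 1950, 1927, 1858 and 1456 TPM in ET-type and 2595, 2238, 2171, 2502 and 2247 TPM in L-type livers (-0.44 ± 0.18, adjusted p = 0.72 by limma). In lung the smallest p among the members was that of RL22, which binds RNA on the outside of the large subunit, at 1023 ± 98.2 and 741 ± 121 TPM (0.47 ± 0.14, adjusted p = 0.16).

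Whether the type difference itself varied by tissue was tested over the 50 libraries, blocked by animal. RL3 was the single member that passed, with an F of 5.87 (adjusted p = 0.028 by limma), beside 5.37% of all genes. RLA0, RS27L, RL35 and RL3L followed without passing, RLA0 with an adjusted p of 0.11. With 1 animal left out at a time, 0 members passed without S0276, S0326, S0349, S0384 or S0385, 2 without S0242 and 6 without S0235. Without the kidney library of S0235, 10 members passed, RL3 (adjusted p = 0.0071) and RS27L (adjusted p = 0.030) among them. The share of all genes that passed was not counted in these leave-out fits. Their counts therefore have no background and are not a result about the members in particular. After scaling on the ribosomal protein genes RLA0 passed (adjusted p = 0.026) and RL3 did not (adjusted p = 0.0997). The call of RL3 was also absent without the block (adjusted p = 0.069), under median-ratio scaling (adjusted p = 0.15) and when only the highest transcript of each entry was used (adjusted p = 0.19).

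RL36 and RL5 varied most between animals of a type. RL36, a small protein of the large subunit, had the largest SD over the 10 animals of the mean deviation from their tissue and type, 0.72 on the log2 scale against a median of 0.21 over the members. In the order of animals above, RL36 was 49.3, 309.2, 94.1, 84.8 and 114 TPM in ET-type hearts and 79.3, 56.4, 221, 43.2 and 29.6 TPM in L-type hearts. In kidney it was 66.3, 168, 107, 44.4 and 126 TPM in ET-type and 99.9, 48.7, 200, 58.5 and 32.5 TPM in L-type animals. S0242 and S0377 were thus the highest of their type in both tissues, and they were so in liver, lung and spleen as well, with 75.3 and 47.4, 153 and 100, and 98.2 and 84.2 TPM. RL36 rested on 2 transcripts, 1 of which held 91.7% of its level, and that transcript matched 63 residues over 1590 bases. Its type difference in the mean over tissues was 0.65 ± 0.40 (adjusted p = 0.40 by limma). RL5, on its partial match, followed with an SD of 0.48. RL5 was lower on average in ET-type than in L-type animals in the mean over tissues, at 25.8 ± 7.56 and 41.5 ± 7.16 TPM (-0.84 ± 0.28, adjusted p = 0.22), and was lowest of all in S0326 in heart, kidney, liver, lung and spleen (16.2, 5.22, 2.63, 35.1 and 5.13 TPM).

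**Figure D5:**
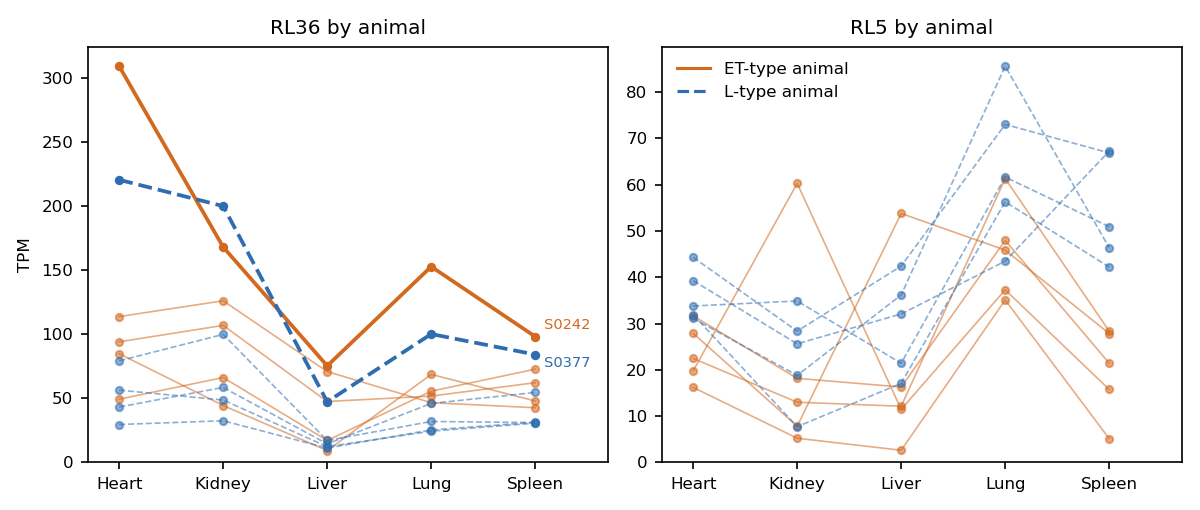
RL36 (left) and RL5 (right) in TPM for each of the 10 animals, a line per animal over the 5 tissues on the x axis; solid orange lines are ET-type and dashed blue lines L-type animals, and the thick lines for RL36 are S0242 and S0377. These 2 animals lead their type in RL36 in each tissue, and RL5 separates the types in spleen, where ET-type animals reach at most 28.3 TPM.

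RL3 had a comparable exception in animal S0377, whose lung (2297 TPM) lay above the 1047 to 1246 TPM of the other L-type lungs and whose spleen (1953 TPM) lay above their 933 to 1246 TPM. Within a type and tissue the members were otherwise steady. Their median coefficient of variation was 15.8% in heart, 16.9% in liver, 14.0% in lung and 14.7% in spleen. For all genes it was 39.2%, 49.4%, 34.6% and 36.9%. In kidney it was 51.5% for the members and 51.8% for all genes. The kidney values take in the library of S0235, with a ribosomal protein share of 25.2% against 5.44% to 8.50% in the other ET-type kidneys. All genes here are those averaging 1 TPM or more over the 50 libraries, while the median member averaged 873 TPM. The part of level in this contrast was not tested.

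The genes that build and drive ribosomes were counted in the same fits, and their counts are to be read beside the shares of all genes. Those shares were 59.9% lower in liver, 64.1% higher in lung, 24.1% higher in spleen, 64.4% lower in heart and 36.3% higher in kidney. Of 31 ribosome biogenesis genes tested, 27 were lower and 1 higher in liver, 26 higher and 1 lower in lung, 23 higher and 0 lower in spleen, 23 lower and 0 higher in heart, and 14 higher and 1 lower in kidney. NSA2, a large-subunit assembly factor, had -1.27 ± 0.15 in liver, and RRP12, a nuclear export factor of both subunits, had 1.37 ± 0.12 in lung. Of 36 translation factors, 29 were lower and 3 higher in liver, 32 higher and 1 lower in lung, 13 higher and 1 lower in spleen, 18 lower and 3 higher in heart, and 3 higher and 8 lower in kidney. EF1D, an exchange factor for EF1A, had -1.32 ± 0.11 in liver and 1.28 ± 0.11 in lung. The ubiquitin fusions RL40, RS27A and RS30 were all lower in liver and all higher in lung and spleen. The 78 mitochondrial ribosomal proteins had 29 higher and 17 lower in heart and 3 higher and 36 lower in spleen, where the cytosolic members had 54 higher. Among 14 genes of mTORC1 and LARP1 control, 8 were lower in ET-type spleens and 0 higher, beside the 21.5% of all genes lower there. LARP1 had -1.12 ± 0.26 (adjusted p = 0.026) and the translation repressor 4EBP2 had -1.17 ± 0.29 (adjusted p = 0.028). As for the members, some of these counts turned with the scaling, and the shares of all genes differed too. Under the 4 other scalings 38% to 66.5% of all genes were lower in liver. In heart 19.3% to 28% were higher and 37% to 49% lower, and in spleen 17.5% to 25.8% and 33% to 46.4%. The higher and lower shares in lung were 26.3% and 28.5% under median-ratio and 25.2% and 34.8% under quantile scaling. Under each of the 4 other scalings the biogenesis genes had more higher than lower in spleen, with 8 to 22 higher, and more lower than higher in liver, with 8 to 29 lower. So had the translation factors in liver, with 10 to 33 lower. The mitochondrial ribosomal proteins had 56 to 62 higher in heart and 39 to 62 lower in spleen. In lung the biogenesis genes turned to 16 lower and 2 higher under median-ratio and to 12 lower and 5 higher under quantile scaling. In kidney they had 8 higher and 9 lower under quantile scaling, beside 25.2% and 34.5% of all genes. The translation factors turned in heart under all 4, with 20 higher and 9 lower under median-ratio scaling, 12 and 10 under quantile scaling, 15 and 10 without mitochondrial transcripts, and 13 and 10 without those and haemoglobin. In lung they turned to 3 higher and 9 lower under median-ratio scaling. In kidney the translation factors turned to 8 higher and 2 lower without mitochondrial transcripts, beside 46.9% and 15.1% of all genes. They had 7 and 5 there without those and haemoglobin, beside 44.3% and 16.2%. The ubiquitin fusions had 0 higher and 1 lower in lung under median-ratio scaling. Under median-ratio or quantile scaling 0 of the mTORC1 and LARP1 genes passed by type in spleen. Of all genes 1.18% and 0.104% were lower there under these scalings.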

How the data were processed

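The authors deposited TPM of 57085 assembled transcripts, with Trimmomatic 0.36, Salmon 1.10.0 and the build Sscrofa11.1 listed per the submitters' processing notes, and a table of each transcript's best Swiss-Prot match. RNA was extracted with TRIzol and libraries made with a stranded mRNA kit, per the labels' protocols. TPM was summed per entry, and transcripts without a match were kept alone. limma 3.58.1 (trend, empirical Bayes, R 4.3.3) was fitted on log2(TPM + 1) for genes averaging 1 TPM or more, p-values were adjusted over all genes tested, and an adjusted p below 0.05 was called. Tables and figures were made in Python 3.11.15. The fits were tested on simulated data. Deviations from the mean of each tissue and type went together in libraries of 1 animal. Their mean r was 0.25 over 100 same-animal library pairs, 96 of them above 0.1. The mean r of -0.06 between animals of a type follows from subtracting those means and is no separate comparison. What the shared deviation came from was not tested. The interaction fit used the animal as block, with an estimated correlation of 0.12. No 2 libraries were identical. Read depth is unknown, so no count model or interval was used. Members named in the text are paralogs with their parents, the stalk, the highest and lowest by level, the most and least variable over tissues, and those with the smallest p or largest difference per comparison; RL36, RL5, RL11, RL7L, S0377 and the neighbours RS2 and RL3L were singled out in part after their values were seen. The members and lists were chosen with earlier results of these data known. All 79 members matched RefSeq by symbol. Alternatives covered the pseudocount, filter, scaling, transcript choice, block and leaving out each animal. Sequences were not used here.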

Additional observations from a re-analysis of the deposited data

Results flagged for a closer look

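The ribosomal protein share, large to small subunit ratio, stalk proteins and paralogs with their parents were checked in each tissue and type. In 110 checks of a group of 5, 13 values lay far from the others, where chance gives about 1 in 20. Several of these values share a library, so the checks are not independent. The kidney of ET-type S0235 accounted for 6 of the 13 values. Its ribosomal protein share was 25.2% against 5.44% to 8.50% in the other ET-type kidneys, its large to small subunit ratio 1.23 against 1.36 to 1.40, RS27 9421 TPM against 583 to 1766, RL7 4209 TPM against 639 to 1436, RLA0 4673 TPM against 848 to 1786, and RLA1 14784 TPM against 2596 to 5298. The kidney of L-type S0355 had a share of 4.62% against 7.86% to 8.87%, with RL7 at 726 TPM against 1207 to 1375 and RLA1 at 2530 TPM against 5114 to 6081, and mitochondrial transcripts made up 44.2% of its TPM. The kidney of L-type S0349 had a large to small subunit ratio of 1.34 against 1.37 to 1.39. RL3 was 2297 TPM in the lung of L-type S0377 against 1047 to 1246, and RL3L 0.443 TPM in its spleen against 0.135 to 0.188. RL7 was 904 TPM in the spleen of ET-type S0326 against 1311 to 1397.

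The type difference of RL3 passed the test of variation by tissue (adjusted p = 0.028 by limma), beside 5.37% of all genes. The call was absent without the block (adjusted p = 0.069), under median-ratio scaling (adjusted p = 0.15) and with the highest transcript per entry (adjusted p = 0.19). It was also absent when S0276, S0326, S0349, S0384 or S0385 was left out.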

How the results depend on the processing

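Counts below are of the 78 members tested, higher and lower together. No share of all genes was counted for fits with an animal or library left out, a log2 difference of at least 0.5 or a changed block. Nor was it counted for the interaction under any alternative. Those counts therefore have no background and are not a result about the members in particular. Of alternatives that shift the scale, median-ratio scaling gave 28 in lung and 0 in the interaction. Quantile scaling gave 60 in kidney and 0 by type in spleen. Without mitochondrial transcripts there were 55 in kidney, 21 in spleen and 4 in the interaction, and the heart share of TPM was 9.78% with a type difference of 2.98 points. Without mitochondrial and haemoglobin transcripts there were 29 in heart and 47 in kidney, the heart share was 9.79% with a type difference of 2.99 points, and the spleen share 11.2% with a type difference of -0.065 points. Scaled on the ribosomal protein genes, an alternative chosen after seeing the data, 40 in liver, 37 in lung, 29 in spleen and 0 by type in spleen passed. A log2 difference of at least 0.5 left 24 in heart, 12 in kidney and 26 in spleen. The highest transcript per entry gave 0 in the interaction, and leaving out the kidney library of S0235 gave 10.

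With the animal as replicate block, 1 member (RL3) passed by type in heart, and without the block 0 in the interaction; the block changed no other count by over 1.5 times. Leaving out 1 animal gave 0 to 4 by type in heart (4 without S0242), 0 to 5 in spleen and 0 to 6 in the interaction. The kidney type difference in share went from 3.19 to -0.44 points without S0235.

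Single members turned sign as follows. RL3L in kidney was 0.17 with a pseudocount of 0.1. With the highest transcript per entry, RL37A in lung was -0.38, RS14 in lung 0.11 and RSSA in spleen 0.29 by type. RL32 in kidney by type was 0.14 under median-ratio and 0.16 under quantile scaling. With 1 animal left out at a time, RL18 in spleen by type ranged from -0.047 to 0.17, with -0.0027 and -0.017 between, RL31 in liver from -0.042 to 0.86, and RL18A in lung from -0.30 to 0.016. The cause was not tested. Unknown read depth limits the lowest members.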
